A study of Mus musculus with 17 samples.

Results

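Foxd1 and 8 other transcription factors of the embryonic renal stroma, Tcf21, Meis1, Meis2, Foxc1, Foxc2, Ebf1, Ebf2 and Ebf3, were followed across 17 bulk RNA-seq libraries of mouse kidney. They were taken by gene symbol, as a list drawn up with earlier results of these data known, and are 9 of the 24432 gene IDs measured. Kidneys were dissected whole at E12.5 (embryonic day) from mice of mixed strain. The first mutant, called Foxd1-Cre here, carried the Ctnnb1-delta3 allele in 1 copy together with Foxd1Cre (genotype Ctnnb1-delta3 c/+;Foxd1, n = 5), so that an activated form of beta-catenin was made in the stromal lineage. The second, called Six2-Cre, carried the same allele with Six2Cre (Ctnnb1-delta3 c/+;Six2, n = 3), which acts in nephron progenitors. The 9 other kidney libraries were labelled Wild-type, and by the labels no library carried a Cre without the activated allele or the allele without a Cre. The design asks what beta-catenin activation in either lineage does to the developing kidney. The 9 factors were taken as factors of the stroma, though some of them also act in other cells.

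Stromal cells that express Foxd1, a forkhead factor, surround the nephron progenitors of the renal cortex and give rise to most of the interstitium, the pericytes and the mesangium, and in mice that lack Foxd1 nephron progenitors fail to differentiate on time. Tcf21 is a basic helix-loop-helix factor of the stroma and of podocytes. Meis1 and Meis2 are TALE homeodomain factors. Foxc1 and Foxc2 are forkhead factors of the mesoderm that also act in the metanephric mesenchyme, and the early B cell factors Ebf1, Ebf2 and Ebf3 are paralogous helix-loop-helix factors, of which Ebf1 is known from Foxd1-derived stroma. Beta-catenin, when stabilised, enters the nucleus and acts on genes through TCF/LEF factors.

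The libraries fell into 2 sets by the number of genes listed at 0. All 5 Foxd1-Cre libraries and wild types 1 to 6 had 5312 to 5807 such genes and an estimated 28600000 to 36700000 reads, and all 3 Six2-Cre libraries and wild types 7 to 9 had 7590 to 7891 such genes and an estimated 5320000 to 5890000 reads. The comparisons reported therefore set each mutant against wild types from the same set, and a fit with all 9 wild types is given as an alternative. Values are in FPKM (fragments per kilobase of transcript, scaled to the mapped fragments of the library), and changes are on the log2(FPKM + 1) scale, which understates the change of genes near 1 FPKM. A call is an adjusted p under 0.05 from limma's moderated test, two-sided and Benjamini-Hochberg adjusted over all genes tested. For the difference between the mutants it comes from a t test on the difference of the 2 separate limma fits, adjusted likewise. Nothing states whether libraries of a group came from separate litters or animals, so p-values measure the spread between these libraries only. In whole kidneys, fewer cells of a type and less RNA per cell cannot be told apart.

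All 9 factors were detected and all 9 passed the filter on low values. In 8 of them every library had at least 1 FPKM. Ebf2 reached 1 FPKM in 13 of 17 libraries, and 4 of the 5 Foxd1-Cre libraries were under it.

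In Foxd1-Cre kidneys 7 of the 9 factors fell, none rose, and Tcf21 and Foxc2 were not called. Of all 13996 genes tested in that comparison, 13.3% were called, 8.45% as higher and 4.82% as lower. The same 7 factors had no overlap between the 5 Foxd1-Cre and the 6 wild-type libraries, against 10.7% of all genes. The median log2 change of the 9 factors was -0.47, against -0.01 over all genes tested. In Six2-Cre kidneys the picture was another: 2 of the 9 factors, Meis1 and Ebf1, rose, none fell and 7 were not called, against 13.8% of 13828 genes called, 7.93% as higher and 5.84% as lower. Meis1 and Ebf1 were also the 2 without overlap between the groups, which with 3 libraries each was so for 35.7% of all genes. With so few members, 2 calls lie close to that background. The median of the 9 was -0.01 there, as over all genes tested.

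**Figure D1:**
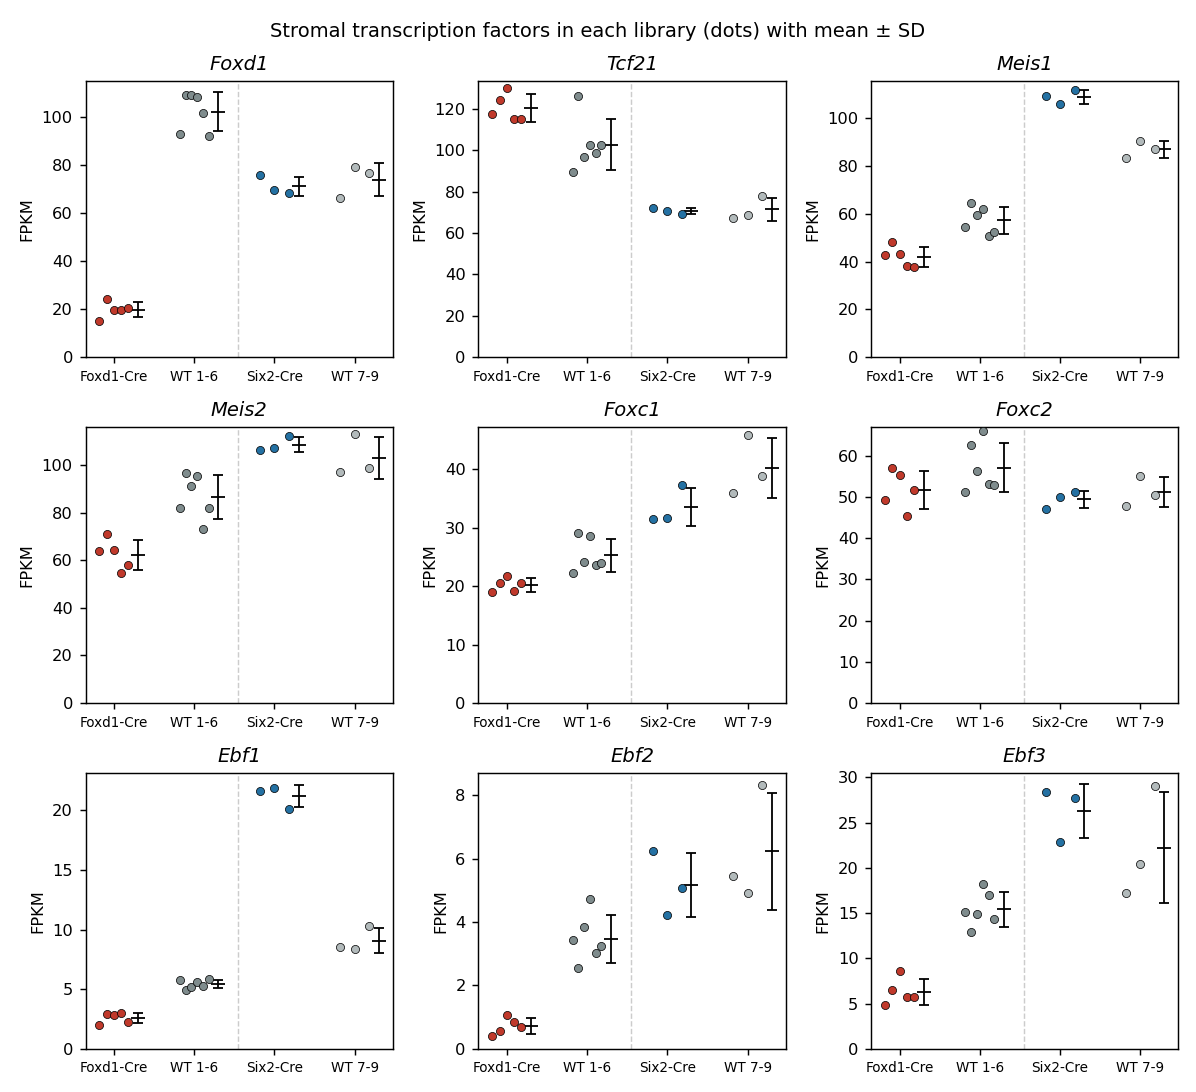
FPKM of each factor (y axis, linear, from 0) in every library (dots) by group, with the mean and SD beside the dots; the dashed line separates the library sets, within which groups are compared. The 5 Foxd1-Cre libraries lie at 15.0 to 24.3 FPKM of Foxd1, below all 6 wild types of their set at 92.4 to 109 FPKM, and the 3 Six2-Cre libraries lie at 20.1 to 21.9 FPKM of Ebf1, above their wild types at 8.38 to 10.3 FPKM.

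**Figure D2:**
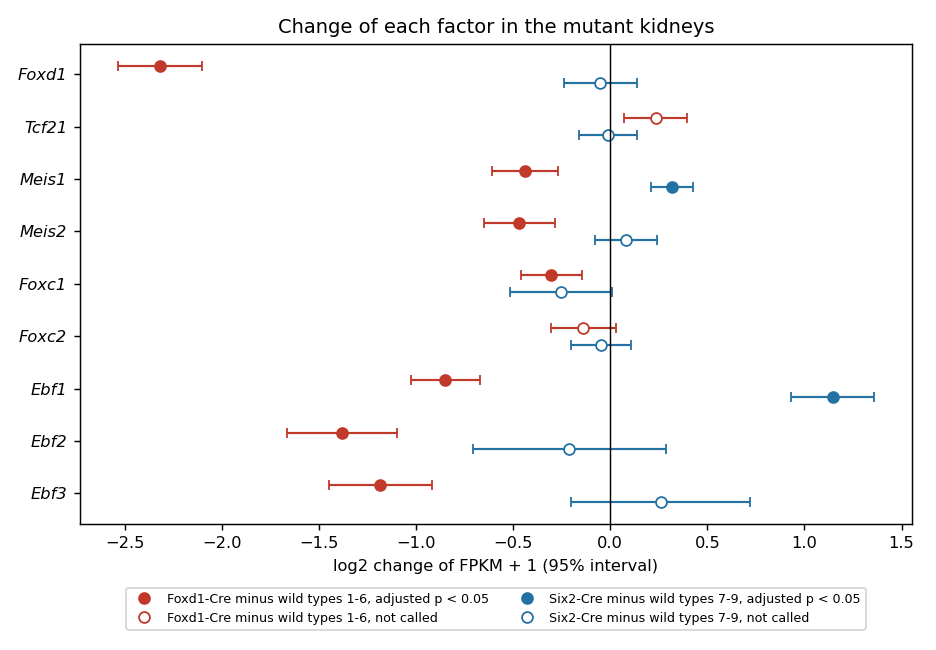
Log2 change of FPKM + 1 (x axis) of each factor with its 95% interval, for Foxd1-Cre minus wild types 1 to 6 (red, upper row of each pair) and Six2-Cre minus wild types 7 to 9 (blue, lower row); filled circles have an adjusted p under 0.05. The 7 filled red circles all lie below 0, from -2.32 for Foxd1 to -0.30 for Foxc1, and the 2 filled blue ones, Meis1 and Ebf1, lie above it.

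Foxd1 (ENSMUSG00000078302), the factor that defines the cortical stroma, lies on the plus strand at chr13:98354242-98359305 (GRCm38) as a single exon. Its level was 15.0, 24.3, 19.8, 19.8 and 20.5 FPKM in the 5 Foxd1-Cre libraries, against a lowest value of 92.4, a median of 105 and a highest of 109 FPKM in wild types 1 to 6. Every Foxd1-Cre library was far below every wild type, and the groups did not overlap. The mean was 19.9 ± 3.32 FPKM in Foxd1-Cre kidneys (SD, n = 5) and 102 ± 7.97 FPKM in wild types (SD, n = 6), which is 19.4% of the wild-type mean, a log2 change of -2.32 ± 0.10 (SE; adjusted p = 1.91e-08). Foxd1-Cre lines in common use carry Cre at the Foxd1 locus itself, so the allele may lower Foxd1 reads with no change in the cells, and which line was used is not given in the sources used here. The loss of 1 working copy would leave 51.2 FPKM if the other copy kept its level, and all 5 libraries were below that value. The effect of the Cre allele and that of beta-catenin activation cannot be told apart in this design.

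In Six2-Cre kidneys, which carry no Foxd1Cre allele, Foxd1 had 75.9, 69.8 and 68.3 FPKM, against 66.4, 79.2 and 76.6 FPKM in wild types 7 to 9. The groups overlapped, with means of 71.3 ± 4.02 FPKM in Six2-Cre and 74.1 ± 6.73 FPKM in wild-type kidneys (SD, n = 3 each). The log2 change was -0.05 ± 0.08 (SE; adjusted p = 0.710), with a 95% interval from -0.24 to 0.14, so a fall of the size seen in Foxd1-Cre kidneys lies far outside it. The change in Foxd1-Cre kidneys minus that in Six2-Cre kidneys was -2.27 ± 0.13 on the log2 scale (difference of limma fits, adjusted p = 3.55e-09).

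Promoter sequence is shown for the 3 factors among the called ones whose promoter held a match to one of 6 short motifs of factor families named in this text. RefSeq promoters of GRCm38.p6, each of 300 bases from 250 before to 50 after the transcript start, were found for 7 of the 9 factors as 8 sequences, with no entry matched for Foxc2 and Ebf2. Each is written 5′ to 3′ along the gene's own strand, with the match in capitals. In Foxd1 (chr13:98353995-98354294, plus strand) and Ebf3 (chr7:137314396-137314695, minus strand) the capitals mark TGACAG, a core bound by TALE factors such as Meis, which starts at position -50 from the start site in Foxd1 and at position -34 in Ebf3. In Ebf1 (chr11:44617850-44618149, plus strand, the first of its 2 starts) they mark TTCAAAG, a TCF/LEF core, at position 37 after the start.
Foxd1: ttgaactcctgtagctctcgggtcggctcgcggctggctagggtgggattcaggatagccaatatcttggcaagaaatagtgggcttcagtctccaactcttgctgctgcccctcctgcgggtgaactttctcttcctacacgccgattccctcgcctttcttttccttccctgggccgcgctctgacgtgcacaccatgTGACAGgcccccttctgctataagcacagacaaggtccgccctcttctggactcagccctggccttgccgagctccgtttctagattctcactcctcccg
Ebf3: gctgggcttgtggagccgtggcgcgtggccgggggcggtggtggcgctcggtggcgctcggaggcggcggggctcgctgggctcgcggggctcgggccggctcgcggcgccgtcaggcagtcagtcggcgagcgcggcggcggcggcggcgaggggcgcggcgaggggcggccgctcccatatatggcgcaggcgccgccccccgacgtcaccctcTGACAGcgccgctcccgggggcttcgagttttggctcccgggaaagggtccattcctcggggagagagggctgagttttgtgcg
Ebf1: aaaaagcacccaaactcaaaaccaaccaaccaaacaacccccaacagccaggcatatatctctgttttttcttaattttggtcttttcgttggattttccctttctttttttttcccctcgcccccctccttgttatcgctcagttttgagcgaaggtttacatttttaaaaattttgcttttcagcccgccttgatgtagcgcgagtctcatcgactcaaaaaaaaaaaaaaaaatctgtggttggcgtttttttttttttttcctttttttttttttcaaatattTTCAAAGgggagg
TGACAG was found in 2 of the 8 member sequences and in 19.2% of 32851 mouse promoters of the same length, both strands searched. TTCAAAG was found in 1 of the 8 and in 5.14% of all promoters. No match was found among the 8 for the TCF/LEF core ATCAAAG (3.73% of all promoters), the forkhead core GTAAACA (3.65%), the E-box CAGCTG (16.3%) or the palindromic EBF motif (0.904%). A match is a description of these letters and says nothing of binding. The 3 printed promoters differ in base composition, with a GC content of 57.7% for Foxd1, 77.0% for Ebf3 and 36.7% for Ebf1, against a median of 52.7% over all promoters.

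The 3 early B cell factors were the lowest of the 9 in level and, after Foxd1, had the largest falls in Foxd1-Cre kidneys. Ebf1 (ENSMUSG00000057098, chr11:44617317-45008091, plus strand) had 1.97, 2.90, 2.81, 3.01 and 2.24 FPKM in Foxd1-Cre libraries, against a lowest of 4.97, a median of 5.41 and a highest of 5.82 FPKM in wild types 1 to 6. All 5 mutant libraries were below all 6 wild types. The means were 2.59 ± 0.453 FPKM in Foxd1-Cre (SD, n = 5) and 5.43 ± 0.342 FPKM in wild types (SD, n = 6), or 47.7% of the wild-type mean, with a log2 change of -0.85 ± 0.08 (SE; adjusted p = 1.95e-05).

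Ebf1 moved the other way in Six2-Cre kidneys. It had 21.6, 21.9 and 20.1 FPKM there, against 8.52, 8.38 and 10.3 FPKM in wild types 7 to 9, with no overlap. The means were 21.2 ± 0.951 FPKM in Six2-Cre and 9.06 ± 1.07 FPKM in wild types (SD, n = 3 each), 2.34 times the wild-type level, and the log2 change was 1.15 ± 0.09 (SE; adjusted p = 0.00135). The changes in the 2 mutants, Foxd1-Cre minus Six2-Cre, differed by -1.99 ± 0.12 (difference of limma fits, adjusted p = 4.8e-08). Endothelial markers moved with this rise: all 8 listed were higher in Six2-Cre kidneys, where their FPKM summed to 209 to 220, against 106 to 127 in wild types 7 to 9, and their part in the Ebf1 result was not tested.

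Ebf2 (ENSMUSG00000022053, chr14:67233292-67430918, plus strand) had 0.394, 0.574, 1.08, 0.844 and 0.686 FPKM in Foxd1-Cre libraries, against a lowest of 2.55, a median of 3.35 and a highest of 4.75 FPKM in wild types 1 to 6. No mutant library reached the lowest wild type. The mean was 0.716 ± 0.261 FPKM in Foxd1-Cre (SD, n = 5) and 3.48 ± 0.754 FPKM in wild types (SD, n = 6), or 20.6% of the wild-type mean, a share close to that of Foxd1. The log2 change of -1.38 ± 0.13 (SE; adjusted p = 1.71e-05) understates this because the values are near 1 FPKM, and it was -2.17 with a pseudocount of 0.1. An estimated 66 to 180 reads stood behind each Foxd1-Cre value and 416 to 715 behind each wild-type value. In Six2-Cre kidneys Ebf2 had 6.23, 4.23 and 5.07 FPKM, against 5.45, 4.92 and 8.32 FPKM in wild types, and these ranges overlapped. That change of -0.21 ± 0.20 (SE; adjusted p = 0.546) has a wide 95% interval, from -0.71 to 0.28.

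Ebf3 (ENSMUSG00000010476, chr7:137193673-137314445, minus strand), the most abundant of the 3 in wild types, had 4.80, 6.52, 8.60, 5.72 and 5.78 FPKM in Foxd1-Cre libraries, against a lowest of 12.9, a median of 15.0 and a highest of 18.3 FPKM in wild types 1 to 6. All mutant values were again below all wild types. The means were 6.29 ± 1.43 FPKM in Foxd1-Cre (SD, n = 5) and 15.4 ± 1.91 FPKM in wild types (SD, n = 6), with a log2 change of -1.18 ± 0.12 (SE; adjusted p = 3.62e-05). In Six2-Cre kidneys it had 28.4, 22.9 and 27.7 FPKM, against 17.2, 20.5 and 29.1 FPKM in wild types, where the single value of 29.1 lay above all 3 mutants. The change there was 0.26 ± 0.19 (SE; adjusted p = 0.424). The effects in the 2 mutants differed for Ebf2 (-1.17 ± 0.24, adjusted p = 0.00867) and for Ebf3 (-1.44 ± 0.23, adjusted p = 0.00152, both by the difference of limma fits, Foxd1-Cre minus Six2-Cre). Genes on the opposite strand overlap Ebf1, Ebf2 and Ebf3 in the annotation, and whether reads were assigned by strand is not given in the sources used here.

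Summed over the 3 paralogues, Ebf FPKM was 9.59 ± 1.95 in Foxd1-Cre (SD, n = 5) and 24.3 ± 2.65 in wild types 1 to 6 (SD, n = 6), and 52.7 ± 3.62 in Six2-Cre and 37.6 ± 8.89 in wild types 7 to 9 (SD, n = 3 each). Ebf1 made up 27.3 ± 3.39% of this sum in Foxd1-Cre and 22.5 ± 2.12% in wild types, with overlapping ranges. In Six2-Cre it made up 38.0 to 44.6%, against 21.6 to 27.3% in wild types, without overlap. Ebf2 made up 7.32 ± 1.59% in Foxd1-Cre, against 14.2 ± 1.84% in wild types, and its ranges of 5.50 to 8.81% and 12.0 to 16.6% did not overlap. Its share was lower without overlap in the other mutant too, at 8.64 to 11.1% in Six2-Cre, against 14.6 to 17.5% in wild types 7 to 9. These shares are a description and were not tested.

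**Figure D3:**
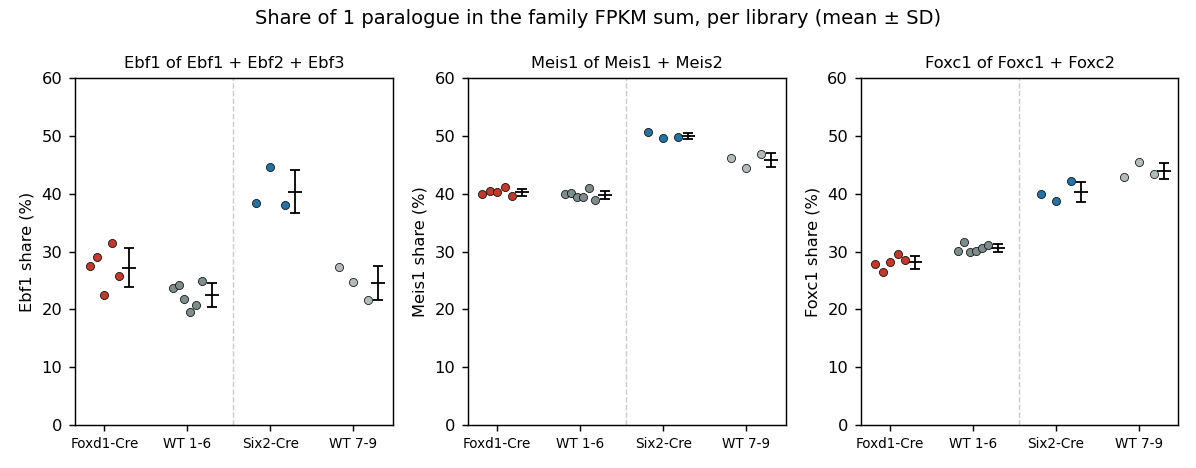
Share (y axis, percent of the family's FPKM sum) of Ebf1 among Ebf1 to Ebf3, of Meis1 among Meis1 and Meis2 and of Foxc1 among Foxc1 and Foxc2 in every library (dots), with mean and SD by group. The Ebf1 share is 38.0 to 44.6% in Six2-Cre libraries, above the 21.6 to 27.3% of their wild types, while the Meis1 share of Foxd1-Cre libraries, 39.6 to 41.2%, overlaps the 39.0 to 41.0% of their wild types.

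Meis1 and Meis2 fell by similar proportions in Foxd1-Cre kidneys. Meis1 (ENSMUSG00000020160, chr11:18879817-19018985, minus strand) had 42.8, 48.1, 43.2, 38.2 and 37.8 FPKM in Foxd1-Cre libraries, against a lowest of 50.9, a median of 56.9 and a highest of 64.7 FPKM in wild types 1 to 6. The highest mutant library was just under the lowest wild type. The means were 42.0 ± 4.23 FPKM in Foxd1-Cre (SD, n = 5) and 57.3 ± 5.59 FPKM in wild types (SD, n = 6), or 73.3%, with a log2 change of -0.44 ± 0.08 (SE; adjusted p = 0.00251). In Six2-Cre kidneys Meis1 was higher, with 109, 106 and 112 FPKM, against 83.5, 90.6 and 87.1 FPKM in wild types 7 to 9 and no overlap. The change was 0.32 ± 0.04 (SE; adjusted p = 0.00771), to 125% of the wild-type mean. Meis1 overlaps 3 annotated genes of the same strand, Gm37818, 2900018N21Rik and 2610001A08Rik, and 2 of the opposite strand, and reads of these could be counted for it.

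Meis2 (ENSMUSG00000027210, chr2:115863064-116065839, minus strand) had 64.1, 70.9, 64.2, 54.5 and 57.8 FPKM in Foxd1-Cre libraries, against a lowest of 73.2, a median of 86.6 and a highest of 96.5 FPKM in wild types 1 to 6. The groups did not overlap. The means were 62.3 ± 6.34 FPKM in Foxd1-Cre (SD, n = 5) and 86.7 ± 9.19 FPKM in wild types (SD, n = 6), or 71.8%, with a log2 change of -0.47 ± 0.08 (SE; adjusted p = 0.00254). In Six2-Cre kidneys Meis2 had 106.5, 107 and 112 FPKM, against 97.0, 113 and 98.6 FPKM in wild types, with overlap and a change of 0.08 ± 0.07 (SE; adjusted p = 0.475). The effects in the 2 mutants differed for Meis1 (-0.76 ± 0.09, adjusted p = 2.35e-05) and for Meis2 (-0.55 ± 0.11, adjusted p = 0.00213, both by the difference of limma fits). Meis1 made up 40.3 ± 0.585% of the Meis1 and Meis2 sum in Foxd1-Cre and 39.8 ± 0.715% in wild types 1 to 6, and 50.1 ± 0.511% in Six2-Cre and 45.9 ± 1.27% in wild types 7 to 9.

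Foxc1 had the smallest of the 7 called falls, and its paralogue Foxc2 was not called. Foxc1 (ENSMUSG00000050295, chr13:31806633-31812476, plus strand) had 19.0, 20.5, 21.7, 19.1 and 20.6 FPKM in Foxd1-Cre libraries, against a lowest of 22.1, a median of 24.0 and a highest of 29.1 FPKM in wild types 1 to 6. The groups came within 1 FPKM of each other but did not overlap. The means were 20.2 ± 1.11 FPKM in Foxd1-Cre (SD, n = 5) and 25.2 ± 2.88 FPKM in wild types (SD, n = 6), with a log2 change of -0.30 ± 0.07 (SE; adjusted p = 0.0147). In Six2-Cre kidneys it had 31.5, 31.7 and 37.3 FPKM, against 35.9, 45.9 and 38.8 FPKM in wild types, a change of -0.25 ± 0.11 that was not called (SE; adjusted p = 0.180). The effects in the 2 mutants differed by -0.05 ± 0.13, with a 95% interval from -0.33 to 0.23 (difference of limma fits, adjusted p = 0.863), so no difference between the mutants was detected for Foxc1.

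Foxc2 (ENSMUSG00000046714, chr8:121116171-121118895, plus strand) had 49.2, 57.1, 55.2, 45.4 and 51.7 FPKM in Foxd1-Cre libraries, against a lowest of 51.3, a median of 54.7 and a highest of 66.0 FPKM in wild types 1 to 6, and most of these values overlapped. The log2 change was -0.14 ± 0.08 (SE; adjusted p = 0.304), with a 95% interval from -0.31 to 0.03. In Six2-Cre kidneys it had 47.2, 49.99 and 51.1 FPKM, against 47.9, 55.0 and 50.6 FPKM in wild types, a change of -0.05 ± 0.06 (SE; adjusted p = 0.663). Foxc2 overlaps Gm20388, a gene of the same strand, in the annotation, and reads of either could be counted for the other. Foxc1 made up 28.1 ± 1.16% of the Foxc1 and Foxc2 sum in Foxd1-Cre and 30.6 ± 0.692% in wild types 1 to 6, and 40.3 ± 1.71% in Six2-Cre and 43.9 ± 1.37% in wild types 7 to 9.

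Tcf21 (ENSMUSG00000045680, chr10:22817281-22820174, minus strand) was the one factor with a positive change in Foxd1-Cre kidneys, and it was not called. It had 117.5, 124, 130.2, 115 and 115 FPKM in Foxd1-Cre libraries, against a lowest of 89.5, a median of 100.5 and a highest of 126 FPKM in wild types 1 to 6. The groups overlapped through wild type 2 alone, whose 126 FPKM lay above 4 of the 5 mutant libraries, while the other wild types had 89.5 to 103 FPKM. The means were 120.4 ± 6.70 FPKM in Foxd1-Cre (SD, n = 5) and 103 ± 12.4 FPKM in wild types (SD, n = 6), a log2 change of 0.23 ± 0.07 (SE; adjusted p = 0.0602). Without wild type 2 the change was 0.30 with an adjusted p of 0.00197. Podocytes also express Tcf21, and 3 of the 5 podocyte markers tested were higher in Foxd1-Cre kidneys, 2 or 3 with a library left out. The 8 listed summed to 102.6 to 111.2 FPKM there, against 85.1 to 103.4 FPKM in wild types, so the ranges overlapped. Wt1, the largest part of the sum, was not called, at 65.3 to 74.7 FPKM, against 66.0 to 76.25 FPKM in wild types. The part of podocytes in the Tcf21 values was not tested, and Nphs1, which marks mature podocytes, was at most 0.0642 FPKM in both groups.

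In Six2-Cre kidneys Tcf21 had 72.2, 70.8 and 69.3 FPKM, against 67.5, 68.7 and 77.9 FPKM in wild types 7 to 9, and all 3 mutant values lay within the wild-type range. The change was -0.01 ± 0.06 (SE; adjusted p = 0.934), with a 95% interval from -0.16 to 0.14. Foxd1-Cre minus Six2-Cre, the changes differed by 0.25 ± 0.10 (difference of limma fits, adjusted p = 0.120), and 0.31 with an adjusted p of 0.0232 without wild type 2.

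Over the 9 factors, the effects of the 2 mutants differed for 6, all of them lower in Foxd1-Cre relative to Six2-Cre, against 11.0% of 13810 genes called in either direction, 5.76% as higher and 5.24% as lower. The median difference was -0.76 for the 9, against 0.01 for all genes tested. Foxc1, Foxc2 and Tcf21 were the 3 not called. With each of the 17 libraries left out in turn, 7 or 8 of the 9 factors were called in Foxd1-Cre kidneys, 2 in Six2-Cre kidneys and 6 or 7 for the difference. With 3 libraries a group, an exact permutation test cannot give a two-sided p below 0.1, so the Six2-Cre calls rest on limma's pooled estimate of the spread. Set against all 9 wild types in 1 fit, the change of Foxc1 in Foxd1-Cre kidneys was -0.52 and that of Meis1 in Six2-Cre kidneys 0.72, and Ebf3 was called in Six2-Cre kidneys (0.58, limma, adjusted p = 0.0226).

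In Foxd1-Cre kidneys Tcf21 stood highest at 120.4 FPKM, followed by Meis2 at 62.3, Foxc2 at 51.7, Meis1 at 42.0, Foxc1 at 20.2, Foxd1 at 19.9, Ebf3 at 6.29, Ebf1 at 2.59 and Ebf2 at 0.716 FPKM. Foxd1 was sixth, and it did not differ from Foxc1 beyond their spread, while Foxc2 was above Meis1 in 5 of 5 libraries though their ranges overlapped. In wild types 1 to 6 Tcf21 and Foxd1 led at 103 and 102 FPKM and overlapped, with Tcf21 the higher in 2 of 6 libraries, then Meis2 at 86.7, Meis1 at 57.3 and Foxc2 at 57.1, which also overlapped, with Meis1 the higher in 3 of 6 libraries, and Foxc1, Ebf3, Ebf1 and Ebf2 in that order. The same 4 factors came last in Six2-Cre kidneys and in wild types 7 to 9, where Meis1 and Meis2 led, at 109 FPKM each in Six2-Cre kidneys with overlapping ranges and at 87.1 and 103 FPKM in wild types. Foxd1 and Tcf21 overlapped in both of these groups as well.

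Wild types 7 to 9 differed from wild types 1 to 6 by -0.46 for Foxd1, -0.51 for Tcf21, 0.60 for Meis1, 0.65 for Foxc1, 0.64 for Ebf1 and 0.68 for Ebf2 on the log2 scale, against a median of -0.11 and a median size of 0.34 over all genes kept. Ebf3 differed by 0.48, and Meis2 (0.25) and Foxc2 (-0.15) by less than that median size. What sets the 2 library sets apart is not given in the labels. The alternative fit with all 9 wild types sets libraries of both sets directly against each other. The difference of effects and the likeness r values also span both sets, each mutant relative to the wild types of its own set. Mutant and library set coincide there, and the part of the set in these results was not tested.

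Among the other genes of the stroma, a list of 22 cortical stroma genes was split in Foxd1-Cre kidneys, with 5 higher, 7 lower and 10 not called and a median log2 change of 0.13. Aldh1a2, the enzyme that makes retinoic acid in the stroma, had 82.1 ± 7.36 FPKM in Foxd1-Cre (SD, n = 5) and 232 ± 12.6 FPKM in wild types (SD, n = 6), a change of -1.49 ± 0.06 (SE; adjusted p = 1.01e-08). The secreted protein Fibin had 3.50 ± 0.354 FPKM in Foxd1-Cre and 11.6 ± 0.800 FPKM in wild types, a change of -1.48 ± 0.06 (SE; adjusted p = 1.73e-08). The guidance cue Ntn1 fell to 8.35 ± 1.01 FPKM in Foxd1-Cre, against 27.9 ± 4.15 FPKM in wild types, a change of -1.62 ± 0.10 (adjusted p = 8.03e-07). Bmp4 is counted in this list, though it is a growth factor of the mesenchyme around the ureteric stalk. Its level rose to 26.4 ± 1.96 FPKM, against 14.2 ± 2.37 FPKM in wild types, a change of 0.85 ± 0.10 (adjusted p = 9.66e-05). The lower genes were Aldh1a2, Sall1, Ntn1, Fibin, Sfrp1, Smoc2 and Cxcl12, and the higher ones Rarb, Bmp4, Gdf10, Slitrk6 and Lum.

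In Six2-Cre kidneys 7 of these 22 were higher, 2 lower and 13 not called, with a median of 0.24. Aldh1a2 had 204 ± 11.1 FPKM in Six2-Cre and 202 ± 16.1 FPKM in wild types (SD, n = 3 each), a change of 0.02 ± 0.07 (SE; adjusted p = 0.913). Ntn1 fell in this mutant too, to 8.71 ± 1.83 FPKM, against 26.7 ± 2.35 FPKM in wild types (-1.52 ± 0.14, adjusted p = 0.00205). The pericyte receptor Pdgfrb rose by 1.31 ± 0.05, Bmp4 by 1.73 ± 0.11 and the matrix protein Ecm1 by 1.46 ± 0.11 on the log2 scale (SE; limma, adjusted p = 0.000129, 0.000802 and 0.0013). With 1 library left out the higher count was 4 to 6 in place of 7, and 4 without Six2-Cre 3, wild type 7 or wild type 8. The effects of the 2 mutants differed for Aldh1a2, Fibin, Bmp4, Pdgfra, Pdgfrb, Ecm1 and Cxcl12, all lower in Foxd1-Cre relative to Six2-Cre, and for Vcan in the other direction. The Vcan call was lost in 11 of the 17 fits that left out a library, those without any 1 of Foxd1-Cre 1 to 5, Six2-Cre 2 or 3 or wild types 1, 3, 4 or 9, with either rescaling of the libraries and with no filter on low values.

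A list of 18 genes of the medullary and ureteric stroma moved mostly upward in Foxd1-Cre kidneys, with 11 higher, 3 lower and 4 not called and a median of 0.92. Over all genes tested 8.45% were called higher and 4.82% lower. Like the other lists, this one was chosen with earlier results of these data known, so its counts and median are a description and no test. Lef1, a DNA-binding partner of beta-catenin and itself a known target of it, had 42.5 ± 5.50 FPKM in Foxd1-Cre (SD, n = 5) and 7.34 ± 0.715 FPKM in wild types (SD, n = 6), a change of 2.38 ± 0.08 (SE; adjusted p = 4.32e-09). The homeobox gene Alx1 rose to 25.0 ± 2.82 FPKM, against 3.29 ± 0.555 FPKM in wild types (2.60 ± 0.09, adjusted p = 4.93e-09). The T-box factors Tbx3 and Tbx2 rose by 1.15 ± 0.06 and 1.03 ± 0.06 (SE; adjusted p = 2.54e-07 and 6.57e-07). Cdkn1c, Fhl2 and Pkdcc were the 3 lower genes. These counts were the same with each library of the comparison left out.

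In Six2-Cre kidneys 9 of the 18 were higher, 3 lower and 6 not called, with a median of 0.56. Over all genes tested 7.93% were called higher and 5.84% lower. Lef1 rose to 40.3 ± 4.13 FPKM in Six2-Cre, against 15.7 ± 0.968 FPKM in wild types (1.30 ± 0.09, adjusted p = 0.000889). Fhl2, a LIM domain protein, rose by 1.26 ± 0.06, Snai2, a zinc finger repressor, by 0.92 ± 0.05 and the ligand Wnt4 by 0.72 ± 0.07 (SE; limma, adjusted p = 0.000229, 0.000539 and 0.00203). Alx1 fell in this mutant, to 2.86 ± 0.237 FPKM, against 4.45 ± 0.267 FPKM in wild types (-0.50 ± 0.09, adjusted p = 0.0197), a call that was lost without any 1 library but Six2-Cre 2 (-0.53 to -0.46, adjusted p = 0.0505 to 0.0735). The 3 lower genes were 2 without Six2-Cre 2, 0 without Six2-Cre 3 and 1 without any other library. The count of 9 higher genes was 6 to 9 with 1 library left out. The effects of the mutants differed for 12 of the 18, higher in Foxd1-Cre for 8, Lef1, Alx1, Tbx2 and Tbx3 among them, and lower for 4, Cdkn1c, Fhl2, Cspg4 and Snai2.

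**Figure D4:**
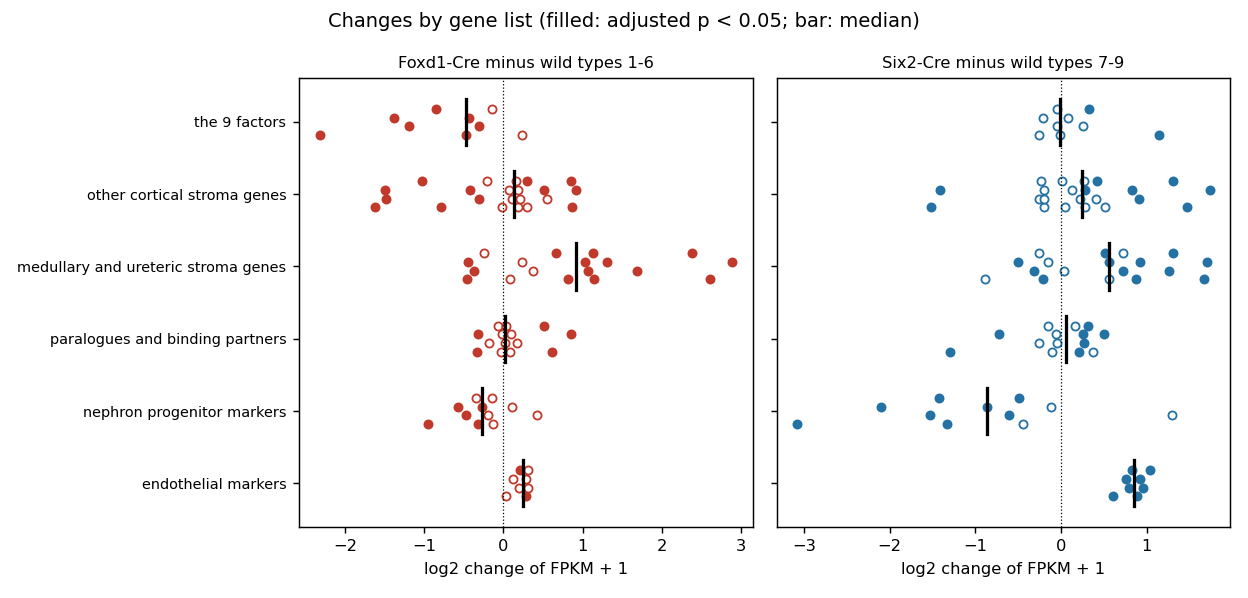
Log2 change of FPKM + 1 (x axis) of every tested gene of each list (rows) for Foxd1-Cre minus wild types 1 to 6 (left panel) and Six2-Cre minus wild types 7 to 9 (right panel), with the list's median as a bar and called genes filled; vertical scatter is only for legibility. In the left panel the 9 factors have a median of -0.47 and the medullary and ureteric stroma genes one of 0.92, and in the right panel all 8 endothelial markers lie above 0. The lists were chosen with earlier results of these data known.

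Of 17 paralogues and binding partners of the 9 factors, 14 could be tested. In Foxd1-Cre kidneys 3 rose, 2 fell and 9 were not called, with a median of 0.02. The E proteins Tcf12 and Tcf4, with which Tcf21 forms dimers on DNA, were 2 of the 3 that rose. Tcf12 had 147 ± 2.47 FPKM in Foxd1-Cre (SD, n = 5) and 80.6 ± 3.03 FPKM in wild types (SD, n = 6), a change of 0.86 ± 0.03 (SE; adjusted p = 2.85e-09). Tcf4 had 40.9 ± 1.56 FPKM in Foxd1-Cre and 26.6 ± 3.11 FPKM in wild types, a change of 0.61 ± 0.07 (adjusted p = 0.00013). Foxl1, a forkhead factor, rose by 0.51 ± 0.12 (SE; adjusted p = 0.0139), and Meis3 fell by 0.32 (SE 0.07, adjusted p = 0.0143), in the direction of Meis1 and Meis2. The count of 2 lower genes was 1 in 9 of the 11 fits that left out a library, all but those without Foxd1-Cre 2 or wild type 5.

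In Six2-Cre kidneys 5 of these 14 rose, 2 fell and 7 were not called. Foxd2, a paralogue of Foxd1, fell to 7.27 ± 1.37 FPKM in Six2-Cre, against 19.1 ± 0.467 FPKM in wild types (SD, n = 3 each), a change of -1.29 ± 0.13 (SE; adjusted p = 0.00264), while in Foxd1-Cre kidneys it had 18.7 ± 0.505 FPKM, against 19.0 ± 2.17 FPKM in wild types (-0.02 ± 0.07, adjusted p = 0.905). The difference of these effects was called. Tcf4 rose by 0.50 ± 0.07 and Zfp423, a zinc finger protein that binds EBF factors, by 0.31 ± 0.06, and Ebf4 fell by 0.73 (SE 0.12; limma, adjusted p = 0.00873, 0.0182 and 0.0136). The call of Zfp423 was lost without any 1 of Six2-Cre 1, 2 or 3 or wild type 7 or 8 (0.28 to 0.32, adjusted p = 0.0577 to 0.0668), and that of Ebf4 without Six2-Cre 2 or 3 or wild type 8 (-0.71 to -0.67, adjusted p = 0.0506 to 0.0527). The count of 5 higher genes was 1 without Six2-Cre 1, 2 or 3, 2 without wild type 7 or 8 and 4 without wild type 9.

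Genes whose pattern was most like each factor were ranked by Pearson's r over the 17 libraries, on log2(FPKM + 1) with the wild-type mean of the own set taken off, among 11562 candidates. These r values rest largely on the difference between the groups, so they are a description with no test. For Foxd1 the 5 nearest were Hic1 (r = 0.986), a zinc finger repressor of mesenchymal cells, the membrane peptidase Mme (0.977), Fibin (0.976), Aldh1a2 (0.975) and the zinc finger factor Zfp703 (0.966). Hic1 had 20.7 ± 2.11 FPKM in Foxd1-Cre (SD, n = 5) and 54.6 ± 1.84 FPKM in wild types (SD, n = 6), a change of -1.36 ± 0.06 (SE; adjusted p = 2.47e-08), and 42.8 ± 3.70 FPKM in Six2-Cre and 40.2 ± 3.18 FPKM in wild types (SD, n = 3 each), a change of 0.09 ± 0.08 (adjusted p = 0.527). Mme fell by 1.46 (SE 0.09) and Zfp703 by 0.89 (SE 0.10) in Foxd1-Cre kidneys (limma, adjusted p = 4.36e-07 and 6.16e-05), and neither was called in Six2-Cre kidneys.

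The 3 nearest genes of Ebf1 were Slc2a13 (r = 0.983), H19 (0.974) and Rgl1 (0.963). For Ebf2 they were Cxcl13 (0.956), Arhgap20 (0.949) and Hs6st1 (0.942), and for Ebf3 Boc (0.955), Ldb2 (0.954) and Fibin (0.949). Meis1 was nearest to Zfpm2 (0.964), Cxcl12 (0.946) and Mcu (0.943), and Meis2 to Zfp703 (0.950) and Shisa3 (0.928). Fibin and Zfp703 each stood near 2 of the factors. The likeness was weaker for the factors that moved least: the nearest genes were Pkdcc (0.842) and Cpa1 (0.835) for Foxc1, Satb1 (0.819), Mamdc2 (0.797) and Zkscan1 (0.771) for Foxc2, and Smoc1 (0.876), Gata2 (0.869) and Tshz3 (0.864) for Tcf21.

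Markers of other cells of the kidney also moved with the groups. Of 11 nephron progenitor markers, 5 were lower in Foxd1-Cre kidneys, where they summed to 328 to 369 FPKM, against 409 to 513 FPKM in wild types 1 to 6. In Six2-Cre kidneys 8 of the 11 were lower, and they summed to 152 to 157 FPKM, against 346 to 390 FPKM in wild types 7 to 9. Of the 8 endothelial markers 2 were higher in Foxd1-Cre kidneys, with sums of 167 to 213 FPKM, against 157 to 188 FPKM. That count ran from 0 to 4 with a library left out and was 0 in 7 of the 11 such fits. Neural crest and neuron markers summed to 30.5 to 43.2 FPKM in Foxd1-Cre, against 18.5 to 22.1 FPKM in wild types, and to 28.4 to 42.9 FPKM in Six2-Cre, against 14.9 to 23.1 FPKM in wild types, with 2 of 6 tested markers higher in Foxd1-Cre and 4 of 6 in Six2-Cre. With a library left out these counts were 1 or 2 in Foxd1-Cre, 1 without Foxd1-Cre 4 or 5 or any of wild types 1, 2, 3, 4 or 6, and 1 to 3 in Six2-Cre, 1 without wild type 7 or 9 and 2 without Six2-Cre 2 or 3 or wild type 8. The higher sum in Foxd1-Cre went with Tubb3, at 17.41 to 26.45 FPKM, against 1.455 to 2.277 FPKM in wild types 1 to 6. Stmn2 was lower there, by 0.97 on the log2 scale (limma, adjusted p = 0.000265). Erythroid markers summed to 10.9 to 15.7 FPKM in Foxd1-Cre, against 15.1 to 22.6 FPKM in wild types, and to 10.9 to 14.8 FPKM in Six2-Cre, against 18.2 to 22.2 FPKM in wild types. Of the 4 tested, 3 were lower in Foxd1-Cre, and 1 was higher and 2 lower in Six2-Cre. The first count was 1 without Foxd1-Cre 3 or 5, and in Six2-Cre at most 1 was lower with any library left out. Podocyte markers summed to 67.6 to 70.7 FPKM in Six2-Cre, against 97.4 to 103 FPKM in wild types 7 to 9, with 1 of 5 higher, Podxl, and 1 lower, Wt1. The lower sum went with Wt1, which nephron progenitors also express, at 39.9 to 44.6 FPKM in Six2-Cre, against 75.3 to 83.1 FPKM in wild types, while the median log2 change of the 5 tested was 0.43, opposite in direction to the sum. Podxl was not called without Six2-Cre 3 or wild type 7 or 8.

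Adrenal and gonad markers summed to at most 8.81 FPKM in every group, with Nr5a1 at 0.175 FPKM or less and Cyp17a1 at 0.019 FPKM or less, and 1 of 3 tested, Mc2r, was higher in Six2-Cre kidneys. The sums were 4.90 to 6.12 FPKM in Foxd1-Cre, against 4.69 to 5.91 FPKM in wild types 1 to 6. In Six2-Cre they were 7.38 to 8.81 FPKM, against 2.86 to 3.31 FPKM in wild types 7 to 9. That higher sum went with Mc2r, at 5.75 to 8.02 FPKM, against 1.81 to 2.375 FPKM in wild types. Skeletal muscle and somite markers summed to 4.70 to 9.66 FPKM in Foxd1-Cre, against 4.48 to 7.62 FPKM in wild types 1 to 6, and to 4.23 to 8.52 FPKM in Six2-Cre, against 6.88 to 24.7 FPKM in wild types 7 to 9, with none of 3 called. The part of these cell types in the changes of the 9 factors was not tested.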

How the data were processed

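Gene expression was measured by bulk RNA-seq in 17 libraries of dissected mouse kidneys, grouped and numbered as their titles give. Storage was in RNAlater, extraction with the RNeasy Micro kit and library preparation by a standard Illumina protocol, per the labels. Per the submitters' processing notes, bcl2fastq 2.17.1.14 and Salmon were used with GRCm38 (mm10). The authors deposited 1 table of FPKM values for 24432 gene IDs. How transcripts were summed to genes, whether strand was used and any scaling between libraries are not given in the sources used here, nor is depth. Total FPKM per library ran from 799273 to 963729.

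Symbols and places came from GENCODE M21 (24189 IDs with a symbol, 243 without), and promoters from RefSeq (GRCm38.p6). Reads per library were estimated from the 5th percentile of FPKM times length in kilobases over 1928 genes with 1 transcript of 1500 to 4000 bases, and serve only to describe precision. The filter kept genes that reached 1 FPKM in 3 or more libraries, less those at 0 throughout a fit, and limma 3.58.1 (R 4.3.3, variance trend) was fitted to log2(FPKM + 1) for each mutant with wild types from the same library set. The difference of effects adds the squared errors, with Satterthwaite degrees of freedom. The tests were checked on simulated data.

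Members, lists, comparisons and tests were chosen with earlier results of these data known. Genes named are the 9 members, up to 4 called genes with the smallest p of each list and comparison, and the 3 nearest genes by Pearson's r (5 for Foxd1), and other members of a list are named as called. A few genes that this rule takes are not reported here. Wisp1 was matched under its present symbol Ccn4, and Ahsp was not matched. Alternatives were other pseudocounts, filters and scalings, all 9 wild types together, no variance trend, a replicate block, an exact permutation test and leaving out each library.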

Additional observations from a re-analysis of the deposited data

Results flagged for a closer look

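The effects of the 2 mutants differed for 6 of the 9 factors, by the t test on the difference of the 2 limma fits, adjusted over 13810 genes. Over all these genes 11.0% were called, 5.76% as higher and 5.24% as lower. Foxd1-Cre minus Six2-Cre was -2.27 for Foxd1, -0.76 for Meis1, -0.55 for Meis2, -1.99 for Ebf1, -1.17 for Ebf2 and -1.44 for Ebf3 on the log2 scale. For Meis1 and Ebf1 the difference joins a called fall in Foxd1-Cre kidneys to a called rise in Six2-Cre kidneys. For the other 4 the Six2-Cre change was not called. Among them, Foxd1 may have fewer reads in Foxd1-Cre kidneys through the Cre allele itself, which cannot be told apart from beta-catenin activation.

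In 2 of 112 groups of values tested, 1 library stood far from the rest of its group, where chance flags about 1 in 20 groups. Tcf21 had 126 FPKM in wild type 2, against 89.5 to 103 FPKM in the other 5 wild types of its set. Alx1 had 29.9 FPKM in Foxd1-Cre 4, against 22.5 to 24.5 FPKM in the other 4 Foxd1-Cre libraries.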

How the results depend on the processing

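Of 522 pairs of a factor's result and another setting, 503 kept direction and side of the threshold, 2 fell below it, 8 passed it and 9 reversed. The 7 falls in Foxd1-Cre kidneys and the 6 differences kept both under every setting run. The 2 pairs below the threshold were Meis1 and Ebf1 in Six2-Cre kidneys under the exact permutation test, which cannot pass it with 3 libraries a group. With all 9 wild types in 1 fit, 1234 genes were called for Foxd1-Cre in place of 1856, 6444 for Six2-Cre in place of 1905 and 8505 for the difference in place of 1519; the cause was not tested, though these wild types come from both library sets. There Tcf21 (0.41, adjusted p = 0.0462 by limma) was called in Foxd1-Cre kidneys and Tcf21 (0.76) and Foxc1 (-0.70) for the difference, Meis3 (-0.06) and Tcf4 (0.31) lost their Foxd1-Cre calls and Alx1 (-0.26) its Six2-Cre call, and uncalled values reversed: Foxc1 (0.18), Ebf2 (0.24), Aldh1a2 (-0.12) and Hic1 (-0.20) in Six2-Cre kidneys and Foxc2 (0.0599) for the difference. With libraries rescaled to the same FPKM sum, Tcf21 was 0.27 (adjusted p = 0.0423) in Foxd1-Cre kidneys and 0.0289 in Six2-Cre kidneys, and Foxd2 was 0.0143 in Foxd1-Cre kidneys. For Tcf21 the exact two-sided permutation p was 0.0217 for Foxd1-Cre, where the smallest possible is 0.00433. With 1 library left out, Six2-Cre calls were 907 to 1467, with fewer libraries in the fit, and near-zero Six2-Cre values crossed 0 for Tcf21 (-0.0485 to 0.0534), Foxc2 (-0.0936 to 0.00497) and Aldh1a2 (-0.0509 to 0.0588), as did the difference for Foxc1 (-0.147 to 0.0273) and the Foxd1-Cre value of Foxd2 (-0.0625 to 0.0146). The shared numbers of Foxd1-Cre and wild-type libraries did not pair them: same-numbered deviations correlated at 0.0224 to 0.0993, and 0 of 5 libraries matched their own number best. With a replicate block 1425 genes and the same count of 7 factors were called for Foxd1-Cre. For Six2-Cre no paired analysis was possible, because its libraries share no number with wild types 7 to 9. Depth limits Ebf2 most, with an estimated 129 to 238 reads a library in the shallower set.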
